A study of Homo sapiens with 3 samples.

Results

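Homologous recombination and Fanconi anemia repair genes were examined in HCT116 cells, a human colorectal carcinoma line, after siRNA knockdown of SMARCA4, the ATPase that drives SWI/SNF chromatin remodeling. The members were 39 genes, taken by name from a list of recombination factors, Fanconi anemia proteins, damage kinases, end resection factors and DNA polymerase theta, out of 22620 genes measured. They were represented by 58 probes, and the brightest probe of each of the 39 genes was well above background on all 3 arrays. The arrays held total RNA from cells transfected with siRNA, with 1 array for SMARCA4-KD1, 1 for SMARCA4-KD2 and 1 for NC, the scrambled negative control, so that no difference between conditions has a replicate check. The study asked which genes respond to loss of SMARCA4 and took a fold change above 1.5 with a p-value limit as its criterion, of which only the fold is used here because each condition has 1 array. Cells were kept in McCOY's 5A medium with serum, and the time between transfection and RNA extraction is not given in the sources used here.

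Homologous recombination repairs broken DNA by copying an intact sister sequence. Ends are first resected, BRCA2 and its helpers then prepare the single strand, the strand invades the sister, and the resulting junctions are dissolved or cut. The Fanconi anemia pathway handles crosslinks between DNA strands: its core complex attaches ubiquitin to the FANCI-FANCD2 clamp, and repair then passes to the recombination factors. Many of these genes are transcribed mainly in dividing cells, in late G1 and S phase.

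The labels name a pair of siRNAs against SMARCA4 and do not say which of them was used for SMARCA4-KD1 and which for SMARCA4-KD2. One of them is shown because it defines a knockdown group, written 5′ to 3′ as the labels give it.

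SMARCA4 siRNA-1: ucgcuuugguucgcaaauc

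The titles of the samples name SMARCA4, while their treatment field names a knockdown of PRMT1. SMARCA4 had a processed signal of 14030 in NC, 3960 for SMARCA4-KD1 and 4129 for SMARCA4-KD2, which left 26.6% and 28.8% of the NC level after scaling of the arrays. PRMT1 stood at 120.3% and 129.2% of NC, so the arrays follow the titles. The knockdown arrays shared slide 1, and NC was on slide 2, so that slide and knockdown cannot be told apart. Between 26619 and 27536 of 58201 probes were well above background on an array. The median SD of probes printed repeatedly on an array was 0.029 to 0.037 on the log2 scale. Of 8 epithelial markers, EPCAM, KRT8, KRT18, CDH1 and CLDN4 were well above background on all arrays, and CEACAM5, LGALS4 and VIL1 were above it on none. Of the markers of other cell types, 3 of 4 leukocyte, 1 of 4 fibroblast and 2 of 3 endothelial markers were well above background on all arrays. Their summed signals per array were 157.0 to 200.4, 358.8 to 487.9 and 77.4 to 116.6, and that of the epithelial markers was 220200 to 242900. These sums run over different probes and do not compare levels between cell types.

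Against NC, 7 of the 39 genes were at least 1.5-fold lower in both knockdowns: BRCA2, RAD54L, FANCE, FANCG, RMI2, EME1 and POLQ. ATM was the only member at least 1.5-fold higher in both. Of all 22620 genes, 8.03% met the threshold for lower in both and 6.36% for higher in both, against 17.9% and 2.56% of the members. All members were well detected, and among the 19497 genes whose brightest probe was well above background on all arrays, the shares were 7.49% and 6.78%. In SMARCA4-KD1, 7 members were lower and 1 was higher, beside 12.2% of all genes lower and 11.2% higher. In SMARCA4-KD2, 11 members were lower and 1 was higher, beside 9.77% of all genes lower and 10.1% higher. Both knockdowns were set against the same NC array, so a deviation of that array enters both counts.

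The members' median log2 fold change was -0.27 for SMARCA4-KD1 and -0.20 for SMARCA4-KD2, while the medians of all genes were -0.002 and 0.02. By sign alone, 24 members were below NC in both knockdowns, 12 were above it in both and 3 differed in sign. The share below NC in both was 61.5% of the members and 39.3% of all genes. With arrays of both siRNAs taken as 2 samples of one knockdown, limma left 1 residual degree of freedom and called 0 of 39 members and 0 of all genes at a Benjamini-Hochberg adjusted p of 0.05. The adjusted p of the members ran from 0.0939 to 0.875. At an unadjusted p under 0.05 limma gave 20 members, 16 lower and 4 higher, where 30.7% of all genes passed. With only the probes well above background on all arrays, limma called 19 of the 39 members at an adjusted p of 0.05. In the same fit 5174 of the 19504 genes left were called.

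Of the 5 genes of the BRCA1-BRCA2 axis, 3 were at least 1.5-fold lower in SMARCA4-KD2, and 1 of them was so in both knockdowns. Of all genes, 9.77% were lower in SMARCA4-KD2 and 8.03% in both. BRCA2, which acts on resected DNA, had a processed signal of 75.2 in NC, 46.8 for SMARCA4-KD1 and 37.6 for SMARCA4-KD2, by a probe on chromosome 13 of hg19 from 32972996 to 32973055. Both knockdown arrays were below NC, by log2 fold changes of -0.77 and -1.03. The error that the extraction software gives for these changes was 0.24 and 0.25, the largest of the 39 genes, at the lowest signal. With normexp background correction the mean log2 fold change of BRCA2 over both knockdowns was -0.47 in place of -0.90, and it was no longer past 1.5-fold in both.

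BRCA1, the ubiquitin ligase and scaffold that acts before BRCA2, had a signal of 1363 in NC, 1014 for SMARCA4-KD1 and 914.8 for SMARCA4-KD2, log2 fold changes of -0.51 and -0.61. Its partner BARD1 had log2 fold changes of -0.55 and -0.57, just short of the threshold of 0.585. BRIP1, a helicase that binds BRCA1, had -0.28 and -0.69. PALB2, which bridges BRCA1 and BRCA2, had 0.04 and 0.15 and was the only gene of the axis above NC in both knockdowns. BRCA1, BRIP1, FANCB and BLM were the 4 members lower by 1.5-fold in SMARCA4-KD2 but not in SMARCA4-KD1. Whether they differed between the knockdowns could not be tested with 1 array each, and their log2 differences of SMARCA4-KD2 from SMARCA4-KD1 were -0.10, -0.41, -0.14 and -0.21.

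The group of RAD51B, RAD51C, RAD51D, XRCC2 and XRCC3, whose products form the BCDX2 and CX3 complexes, held no gene past the threshold in either knockdown. RAD51B had a signal of 102.0 in NC, 81.5 for SMARCA4-KD1 and 81.0 for SMARCA4-KD2, or -0.41 and -0.37 on the log2 scale, the largest mean change in this group. RAD51C, a subunit of both complexes, had 0.23 and 0.04, XRCC2 had 0.03 and -0.13, and RAD51D had -0.27 and -0.03. XRCC3, the partner of RAD51C, had -0.47 and -0.05 by its brightest probe, but its other detected probe gave 0.54 and 0.55. The signal of the brightest probe was 38180 in NC, 29270 for SMARCA4-KD1 and 37660 for SMARCA4-KD2, and that of the other was 1319, 2031 and 1980 in the same order. The direction of XRCC3 therefore rests on the choice of probe.

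Of the strand exchange group, RAD54L, a DNA translocase that helps strand invasion, was lower in both knockdowns. Its signal was 2691 in NC, 1806 for SMARCA4-KD1 and 1673 for SMARCA4-KD2, by a probe on chromosome 1 of hg19 from 46744038 to 46744097. RAD54L was 1.58-fold and 1.65-fold below NC, or -0.66 and -0.72 on the log2 scale, with a software error of 0.20 for each. Its relative RAD54B had -0.42 and -0.56 by the brightest probe, and 0.21 and -0.10 by a dimmer one, with signals of 98.1 to 126.0 against 1190 to 1719 for the brightest. RAD51AP1, which stimulates strand pairing, had -0.19 and -0.23. RAD52, an annealing protein, had 0.18 and 0.19.

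The Fanconi core complex, a ubiquitin ligase of several subunits, was split. FANCE, the subunit that contacts FANCD2, had a signal of 5933 in NC, 3944 for SMARCA4-KD1 and 3927 for SMARCA4-KD2, by a probe on chromosome 6 of hg19 from 35434765 to 35434824. It was 1.59-fold and 1.54-fold below NC, log2 fold changes of -0.67 and -0.63. FANCG, which binds FANCA, had a signal of 4650 in NC, 2889 for SMARCA4-KD1 and 2869 for SMARCA4-KD2, by a probe on chromosome 9 of hg19 from 35073935 to 35073994. Its log2 fold changes were -0.77 and -0.73. For both genes the knockdown arrays differed from each other by less than 0.05 on the log2 scale.

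FANCC and FANCF, which form a subcomplex with FANCE, stood on the other side of NC. FANCC had a signal of 786.4 in NC, 1241 for SMARCA4-KD1 and 1172 for SMARCA4-KD2, log2 fold changes of 0.57 and 0.54, just short of the threshold. Its second probe gave 1.30 and 1.15. FANCF had 0.51 and 0.52 by its brightest probe and 0.93 and 0.84 by the other. With the mean over probes in place of the brightest one, FANCC and FANCF were the 2 members at least 1.5-fold higher in both knockdowns. FANCB, an organizer of the catalytic module, had log2 fold changes of -0.46 and -0.61, FANCM, the translocase that anchors the complex to DNA, had -0.39 and -0.51, and FANCA had -0.13 and -0.20. FANCL, the catalytic subunit, had 0.05 and -0.11.

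Of the clamp that the core complex acts on, FANCI had a signal of 3667 in NC, 2829 for SMARCA4-KD1 and 2800 for SMARCA4-KD2, log2 fold changes of -0.46 and -0.42. FANCD2 had 0.05 and -0.14 by its brightest probe. A second FANCD2 probe of fair signal gave -0.25 and -0.37, and neither gene was 1.5-fold from NC by any probe.

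RMI2 had the largest change of the 39 genes. It is a small subunit of the complex of BLM, TOP3A and RMI1 that dissolves double Holliday junctions without crossover. Its signal was 4015 in NC, 1657 for SMARCA4-KD1 and 1475 for SMARCA4-KD2, by a probe on chromosome 16 of hg19 from 11445384 to 11445443. RMI2 was 2.57-fold and 2.78-fold below NC, or -1.36 and -1.48 on the log2 scale, with a software error of 0.20 for each. It was the only one of the 8 members past the threshold in both knockdowns whose changes passed it by more than that error in each, and the only one past 2-fold in both.

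The other subunits of the complex did not share one direction. RMI1 had log2 fold changes of -0.45 and -0.55, and BLM, the helicase, had -0.38 and -0.59. TOP3A, the topoisomerase, which is on the list of remaining pathway genes, had 0.74 and 0.48. WRN, a RecQ helicase outside this complex, had 0.20 and 0.17.

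The MUS81-EME1 nuclease, which cuts joint molecules, had its subunits on opposite sides of NC. EME1 had a signal of 369.3 in NC, 241.6 for SMARCA4-KD1 and 214.1 for SMARCA4-KD2, by a probe on chromosome 17 of hg19 from 48458627 to 48458686. Its log2 fold changes were -0.70 and -0.82. MUS81, the catalytic subunit, had a signal of 1729 in NC, 2656 for SMARCA4-KD1 and 2310 for SMARCA4-KD2, log2 fold changes of 0.53 and 0.39, short of the threshold.

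POLQ, the polymerase of theta-mediated end joining, which seals breaks without a sister template, had a signal of 1070 in NC, 709.0 for SMARCA4-KD1 and 582.4 for SMARCA4-KD2. The POLQ probe maps to chromosome 3 of hg19 between 121150702 and 121150761. It was 1.60-fold and 1.88-fold below NC, log2 fold changes of -0.68 and -0.91.

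**Figure D1:**
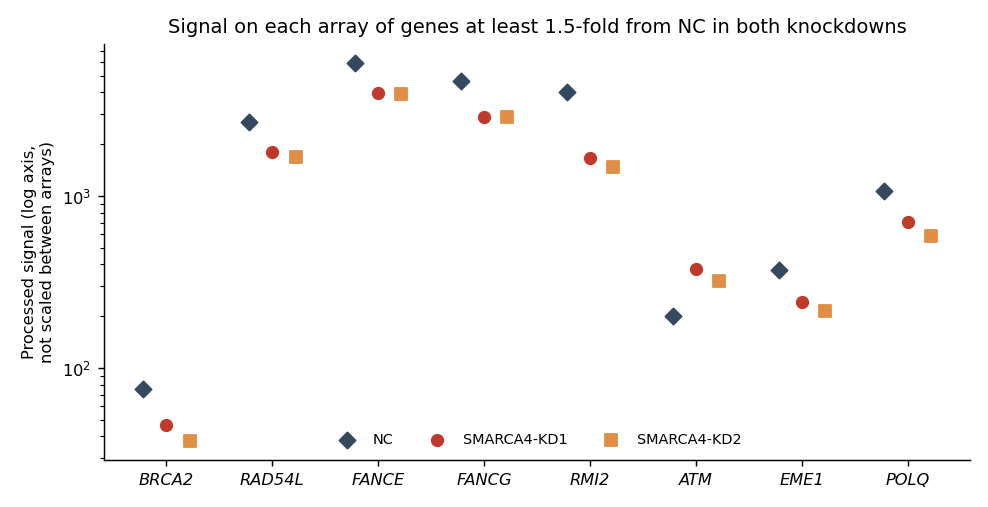
Processed signal (y axis, log scale, before scaling between arrays) of the 8 genes at least 1.5-fold from NC in both knockdowns (x axis) on the NC array (diamonds), SMARCA4-KD1 (circles) and SMARCA4-KD2 (squares). NC is the highest of the 3 arrays for 7 genes and the lowest for ATM, at 200.1 against 376.0 and 322.1.

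Among the damage kinases, ATM, which responds to double-strand breaks, was the only gene past the threshold. Its brightest probe had a signal of 200.1 in NC, 376.0 for SMARCA4-KD1 and 322.1 for SMARCA4-KD2, log2 fold changes of 0.83 and 0.65. ATM had 2 further probes, both dim: one had signals of 35.0, 41.6 and 44.8 in the same order and log2 fold changes of 0.16 and 0.32, the other had signals of 32.8, 26.0 and 30.7 and log2 fold changes of -0.42 and -0.13. The 3 probes are shown because they did not give the same answer. They lie on the plus strand of chromosome 11 of hg19, and each is 60 bases long and printed 5′ to 3′ from the array design, the bright one first.

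ATM, chr11:108099942-108100001: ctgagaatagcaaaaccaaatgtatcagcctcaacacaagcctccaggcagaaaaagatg

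ATM, chr11:108236085-108236144: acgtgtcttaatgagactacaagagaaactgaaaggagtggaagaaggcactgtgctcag

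ATM, chr11:108166338-108166397: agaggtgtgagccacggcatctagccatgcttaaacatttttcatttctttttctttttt

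The bright probe and the next were designed on the reference mRNA of ATM, and the last on another cDNA record. With the mean over the 3 probes, the mean log2 fold change of ATM was 0.24 in place of 0.74. ATR, the kinase of stalled replication forks, had 0.05 and 0.04. Its target CHEK1 had 0.10 and 0.12, and CHEK2, the target of ATM, had -0.18 and -0.17 by the brightest of 4 probes, at signals of 1559 to 1714, and 0.03 and 0.07 by the next, at 1416 to 1536.

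The genes of end resection held none past the threshold. MRE11A, the nuclease of the MRN complex, had a signal of 391.5 in NC, 299.2 for SMARCA4-KD1 and 292.3 for SMARCA4-KD2, log2 fold changes of -0.47 and -0.45. Its partners were above NC in both knockdowns, RAD50 with 0.14 and 0.05 and NBN with 0.24 and 0.24. RBBP8, the cofactor known as CtIP, had -0.19 and -0.04.

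Of the 39 genes, 13 had more than 1 probe. For 9 of these 13 all probes well above background on the 3 arrays shared the sign of their mean log2 fold change. ATM, CHEK2, RAD54B and XRCC3 were the exceptions. RAD51B is among the 9 with only 1 such probe, so its probes could not differ in this count. Its other probe was well above background only in SMARCA4-KD2, with signals of 8.4 in NC, 10.2 for SMARCA4-KD1 and 17.5 for SMARCA4-KD2. That probe gave 0.185 and 1.022, with values not well above background left as measured and not raised. The 7 genes lower in both knockdowns had 1 probe each, so none of them had a second probe to set beside the first.

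BRCA1, FANCA, RAD50, RMI1 and WRN had a probe printed 10 times on each array, which gives the spread within an array. After removal of outlier spots, the log2 signal of BRCA1 relative to the 75th percentile of the array was 2.10 ± 0.027 (SD, n = 8 spots) in SMARCA4-KD1, 1.93 to 2.04 in SMARCA4-KD2 (SD 0.035, n = 9 spots) and 2.61 ± 0.032 (SD, n = 9 spots) in NC. The highest BRCA1 spot of the knockdown arrays, at 2.13, was below the lowest NC spot, at 2.56. For RMI1, whose spots had means of 2.99, 2.89 and 3.44 in the same order, the knockdown arrays were likewise below every NC spot. For WRN every knockdown spot was above every NC spot, with means of 2.77, 2.74 and 2.57. The spots of FANCA overlapped between SMARCA4-KD1 and NC, and those of RAD50 overlapped between SMARCA4-KD2 and NC. Spots of one array share its RNA and its hybridization, so these SDs cover neither cultures nor slides. How many of the 300 probes printed repeatedly have spots apart in this way was not counted. Separate spots are therefore not shown to be particular to these genes.

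**Figure D2:**
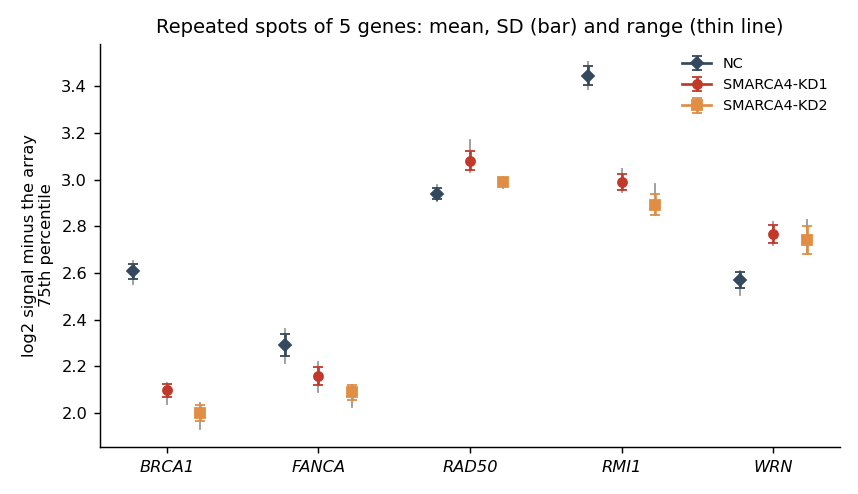
Log2 signal minus the array's 75th percentile (y axis) of the 5 genes with repeated spots (x axis), as mean with SD (thick bar) and range (thin line) over 8 to 10 spots of 1 array, for NC, SMARCA4-KD1 and SMARCA4-KD2. For BRCA1 and RMI1 the NC range lies above both knockdown ranges, and for WRN it lies below both.

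The remaining genes of the pathway were taken from a list of 58, of which 54 were measured. At least 1.5-fold, 3 were below NC in both knockdowns and 3 above it in both, or 5.56% each way, near the shares of all genes. Read one knockdown at a time, 4 passed 1.5-fold below NC and 5 above it with SMARCA4-KD1, and 6 and 4 with SMARCA4-KD2. Their median log2 fold changes were -0.11 and -0.10. Among the lower ones were USP1 and BRCC3. USP1, which removes ubiquitin from FANCD2, had -0.66 and -0.69. BRCC3, a deubiquitinase that acts with BRCA1, had -0.68 and -0.59, and with the mean over probes it was no longer past 1.5-fold in both knockdowns.

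The 3 higher genes were EME2, SWSAP1 and FAM175A. EME2, the alternative partner of MUS81, had a signal of 63.2 in NC, 176.9 for SMARCA4-KD1 and 162.1 for SMARCA4-KD2 and log2 fold changes of 1.40 and 1.33, so that EME1 and EME2 stood on opposite sides of NC. With normexp background correction the mean log2 fold change of EME2 was 0.82 in place of 1.36. SWSAP1, which works with SWS1 in recombination, had a signal of 41.8, 112.4 and 85.9 in the same order and log2 fold changes of 1.34 and 1.01. With normexp background correction its mean was 0.56 and it was no longer past 1.5-fold in both knockdowns. FAM175A, which recruits BRCA1 to ubiquitin at breaks, had 0.69 and 0.65.

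Among the lists of other repair routes, 12 genes of non-homologous end joining had median log2 fold changes of 0.10 and 0.17, with 1 gene lower and 0 higher in both knockdowns. Mismatch and base excision repair, with 22 genes, had medians of -0.06 and -0.03, with 1 gene lower and 1 higher in both. Cell cycle genes stood lower. The 20 S-phase genes had medians of -0.36 and -0.40, with 5 lower and 0 higher in both, and the 20 G2/M genes had medians of -0.73 and -0.64, with 9 lower and 0 higher in both. MKI67, a marker of cycling cells, had a signal of 3517 in NC, 1678 for SMARCA4-KD1 and 1593 for SMARCA4-KD2 and log2 fold changes of -1.15 and -1.18. CCNB1, the mitotic cyclin B1, had -0.82 and -0.69, CCNE2, a cyclin of S-phase entry, had -0.68 and -0.77, and PCNA, the replication clamp, had -0.45 and -0.46. Of the S-phase genes 2 lay above NC in both knockdowns, CCNE1 with 0.61 and 0.48 and RRM2 with 0.51 and 0.41, and of the G2/M genes 1 did, CDC20 with 0.22 and 0.01. These 3 genes were named after their values were seen. The medians of both lists lay below NC, as the members' did, and their part in the members' values was not tested. In bulk RNA, fewer cells in S and G2 phase and less RNA per cell cannot be told apart.

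**Figure D3:**
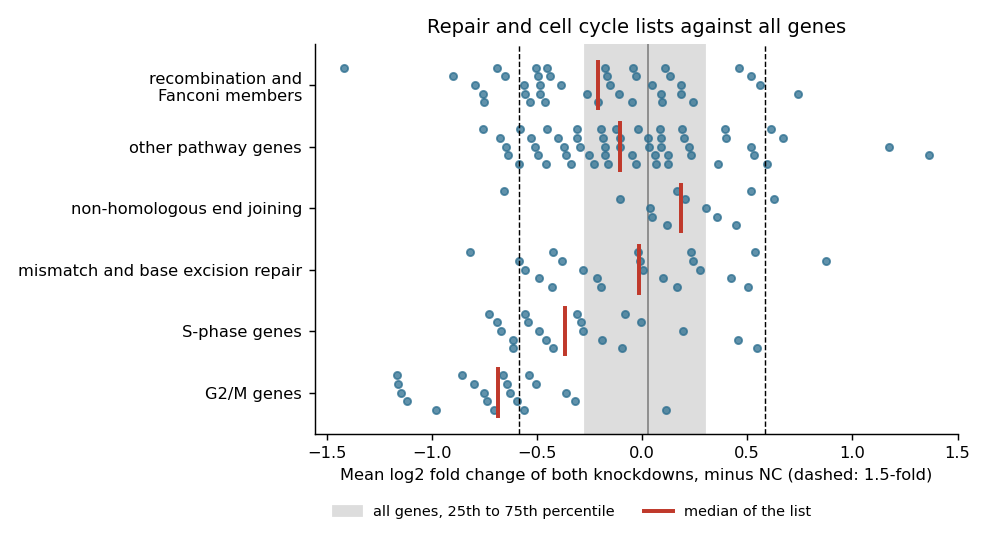
Mean log2 fold change of both knockdowns against NC (x axis) for the genes of 6 lists (y axis, 1 point per gene, vertical spread for legibility only), with the median of each list in red, the middle of all 22620 genes shaded and dashed lines at 1.5-fold. The members' median of -0.21 lies between those of the remaining pathway genes, -0.10, and of the S-phase genes, -0.37.

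The promoters of the genes that were lower in both knockdowns are shown with matches to an E2F motif, since E2F factors drive many genes of S phase. The windows run from 250 bases before to 50 after the start site and come from RefSeq on GRCh38.p14, a build other than that of the probes. Of the 39 members 34 were matched by symbol, MRE11A as MRE11, and FANCI, NBN, RAD54B, RMI2 and WRN were not. The first E2F string searched was TTCCCGC. The next one differs from it in its middle letters and reads TTGGCGC. The last one for E2F is TTCGCGC. All were searched on both strands, and none of the strings contains another. Capitals mark the match, and BRCA2 and ATM, without a match, are given for comparison. RAD54L has a second, overlapping window with the same match.

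RAD54L, chr1:46247438-46247737, plus strand: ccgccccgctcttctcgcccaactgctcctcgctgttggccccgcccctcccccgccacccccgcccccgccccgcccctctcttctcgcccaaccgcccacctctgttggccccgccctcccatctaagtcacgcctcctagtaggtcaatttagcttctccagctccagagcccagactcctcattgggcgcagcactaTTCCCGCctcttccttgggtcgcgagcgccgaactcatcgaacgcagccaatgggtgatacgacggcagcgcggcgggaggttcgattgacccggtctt

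POLQ, chr3:121545939-121546238, minus strand: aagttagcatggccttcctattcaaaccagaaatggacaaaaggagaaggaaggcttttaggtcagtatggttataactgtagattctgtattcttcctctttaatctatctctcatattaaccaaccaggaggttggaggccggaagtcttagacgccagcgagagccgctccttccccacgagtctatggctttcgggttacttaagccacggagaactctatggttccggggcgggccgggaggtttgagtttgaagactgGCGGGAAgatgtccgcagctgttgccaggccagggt

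FANCE, chr6:35452088-35452387, plus strand: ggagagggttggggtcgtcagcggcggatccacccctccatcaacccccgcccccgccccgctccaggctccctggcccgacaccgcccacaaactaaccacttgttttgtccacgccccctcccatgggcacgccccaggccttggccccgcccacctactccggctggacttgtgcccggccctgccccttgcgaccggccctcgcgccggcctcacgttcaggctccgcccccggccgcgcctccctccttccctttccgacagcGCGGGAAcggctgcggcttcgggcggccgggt

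FANCG, chr9:35079893-35080192, minus strand: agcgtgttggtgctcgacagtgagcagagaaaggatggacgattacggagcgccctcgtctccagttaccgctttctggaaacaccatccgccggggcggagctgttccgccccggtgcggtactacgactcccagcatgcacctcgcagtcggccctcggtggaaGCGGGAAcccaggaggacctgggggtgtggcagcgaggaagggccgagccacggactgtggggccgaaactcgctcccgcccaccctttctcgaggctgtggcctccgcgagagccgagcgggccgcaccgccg

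EME1, chr17:50372979-50373278, plus strand: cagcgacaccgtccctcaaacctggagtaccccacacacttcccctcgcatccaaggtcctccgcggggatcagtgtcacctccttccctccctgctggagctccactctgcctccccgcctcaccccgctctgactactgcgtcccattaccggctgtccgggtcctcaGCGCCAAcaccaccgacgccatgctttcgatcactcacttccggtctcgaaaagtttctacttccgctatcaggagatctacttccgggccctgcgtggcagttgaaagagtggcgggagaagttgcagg

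BRCA2, chr13:32315258-32315557, plus strand: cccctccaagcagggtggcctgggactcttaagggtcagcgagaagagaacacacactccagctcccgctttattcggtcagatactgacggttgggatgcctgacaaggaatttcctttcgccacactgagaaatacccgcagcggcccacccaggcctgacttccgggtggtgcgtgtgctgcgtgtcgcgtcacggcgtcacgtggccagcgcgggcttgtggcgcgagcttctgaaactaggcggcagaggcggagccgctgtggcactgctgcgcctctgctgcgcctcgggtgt

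ATM, chr11:108222817-108223116, plus strand: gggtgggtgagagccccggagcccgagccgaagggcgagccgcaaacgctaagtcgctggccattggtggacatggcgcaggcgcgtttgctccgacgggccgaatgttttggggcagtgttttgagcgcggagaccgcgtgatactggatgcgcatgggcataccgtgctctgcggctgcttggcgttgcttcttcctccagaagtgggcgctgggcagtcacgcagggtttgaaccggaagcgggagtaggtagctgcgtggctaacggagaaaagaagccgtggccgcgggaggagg

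The match lay 49 bases before the start site in RAD54L, 84 before it in FANCG and 80 before it in EME1, and 14 and 18 bases after it in POLQ and FANCE. The letters are TTCCCGC in RAD54L, its reverse complement in POLQ, FANCE and FANCG, and the reverse complement of TTGGCGC in EME1. An E2F match was present in 23 of the 46 windows of members, 50%, against 11.0% of all 35116 windows. By gene, 20 of 34 members had one, against 13.1% of all 27305 genes with a window. Of these members, 5 of the 6 lower in both knockdowns had one, and 15 of the other 28. RMI2, also lower in both, had no window. In a split chosen after the values were seen, the 20 members with a match had a median mean log2 fold change of -0.37, between -0.79 and 0.56, and the 14 without one had -0.03, between -0.90 and 0.74. Whether the match is related to the fold change was not tested. The cell cycle homology letters TTTGAA, searched the same way, were in 8.7% of the members' windows and 15.2% of all windows, and CCAAT was in 43.5% and 34.6%.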

How the data were processed

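HCT116 RNA was labelled with Cy3 and hybridized to Agilent SurePrint G3 arrays of 60-base probes, 1 array per condition. The deposited values are intensities from Agilent Feature Extraction 10.7.1.1, run by the authors, already background-subtracted, with a flag for signal well above background, and probe positions on hg19. The authors' series-level table of intensities matched the scanner files within 0.1% for 57870 of 57871 probes with 1 spot.

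Here log2 intensities were centred on each array's 75th percentile. Outlier spots were left out, which removed 30 of 58201 probes, and repeated spots were averaged. Values not well above background were raised to the lowest value that was on that array, unless they were already higher. A probe had to be well above background on 1 array or more, and each of 22620 genes was read from its brightest probe. Differences of at least 1.5-fold from NC were counted without a test. The number of arrays, 1 per condition, limits the precision. limma 3.58.1 (lmFit and eBayes with an intensity trend, R 4.3.3, Benjamini-Hochberg adjustment over all genes) was run on both knockdowns against NC as a second description. The counting and the fold changes of the model were checked on simulated arrays. Their noise was set from the spread between the knockdown arrays, which share a slide, so a difference between slides was not simulated.

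Every member with a probe is named. Signals are given for members past 1.5-fold in both knockdowns, for the gene of largest mean change in roles without one, and for genes whose probes differ in sign and some whose partners differ. Members, lists and motifs were chosen with earlier results of these data known. Of the remaining pathway genes lower in both knockdowns 1 is not reported here, and neither is the sequence of 1 siRNA.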

Additional observations from a re-analysis of the deposited data

How the results depend on the processing

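The results were recomputed with quantile normalization, normexp background correction, a 75th percentile over detected probes, a filter on all arrays, no filter, no floor, the mean over probes, the series-level table and a 2-fold threshold. No paired analysis was possible because each condition had 1 array, and for the same reason no array could be left out. The gene values recomputed under the 8 alternatives of processing were 360 mean log2 fold changes over both knockdowns. The software errors given above for genes belong to 1 knockdown each and are not the limit used for these means. By the software error of the means, 350 moved by less and 10 by more. Of those past 1.5-fold in both knockdowns, 0 changed sign. Among the 10, XRCC3 (0.14 with the mean over probes) and CHEK2 (0.10 with normexp), not past that threshold, changed sign. The 7 members lower in both knockdowns kept that call in every alternative except normexp, where 5 remained (BRCA2 and RAD54L did not, with means of -0.47 and -0.60), and the 2-fold threshold, where only RMI2 remained. With the percentile over detected probes BARD1 joined them. ATM lost its call with normexp (mean 0.59), where FANCC took its place, with the mean over probes, where 2 other members, FANCC and FANCF, were higher in each knockdown and in both, and at 2-fold.

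With normexp 6 members were lower in SMARCA4-KD2 and 2 were higher in SMARCA4-KD1, beside 1013 and 1521 of 22620 genes. The members' medians with normexp were -0.19 and -0.15 (SMARCA4-KD1 and SMARCA4-KD2). The medians were -0.33 and -0.25 with the percentile over detected probes, and -0.19 and -0.25 with the mean over probes. At 2-fold, 1 member was lower and 0 were higher in SMARCA4-KD1, beside 821 and 772 of 22620 genes. In SMARCA4-KD2, 2 members were lower and 0 were higher at 2-fold, beside 589 and 641 genes. In both knockdowns 1 member was lower and 0 were higher at 2-fold, and 0 of the remaining pathway genes were lower. Under quantile normalization, and with the percentile over detected probes, 6 of the remaining pathway genes were lower in both. With the mean over probes 2 were, without BRCC3. At an adjusted p of 0.05 limma called 19 members (5174 genes) with the filter on all arrays, 13 (2651 genes) with quantile normalization, 16 (3601 genes) with normexp and 0 without the intensity trend. At an unadjusted p under 0.05 it gave 20 members and 6954 genes. The cause of these differences was not tested. Without the filter the medians of all 43299 genes were -0.15 in both knockdowns. Over all genes, normexp left 859 lower and 902 higher in both, against 1816 and 1439, and the 2-fold threshold left 476 and 330. BRCA2, at signals of 37.6 to 75.2, is the member whose value the background limits most.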
